A study of Mus musculus with 4 samples.

Results

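The genes described here are 10 textbook targets of the transcription factor p53, namely Cdkn1a, Mdm2, Ccng1, Trp53inp1, Gdf15, Phlda3, Zmat3, Eda2r, Sesn2 and Bax. They were chosen by name, as a readout of DNA damage after doxorubicin, and they are 10 of the 31053 genes listed for each library. They were followed in melanoma-like, fibroblast-like, T-like and myeloid cells of B16F10 tumours, grafts of a mouse melanoma cell line. All 10 were detected.

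In an undisturbed cell p53 is made continuously and destroyed continuously, because Mdm2 marks it for degradation. Breaks in DNA activate kinases that free p53 from Mdm2, and p53 then switches on genes that stop the cell cycle (Cdkn1a), feed back on p53 itself (Mdm2, Ccng1) or start cell death (Bax). Doxorubicin, an anthracycline, traps topoisomerase II on DNA and leaves such breaks. Several of the 10 genes also answer to other signals, and Gdf15 and Sesn2 are known targets of the integrated stress response.

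The aPD-1 library came from a tumour treated with an antibody to the T cell checkpoint receptor PD-1. The D+F library had doxorubicin and fasudil, an inhibitor of the kinase ROCK, and the D+F+P library had all 3 agents, doxorubicin, fasudil and the antibody to PD-1. The control library is labelled only as control. All 4 groups carried tumours of the same cell line and have 1 library each. Doses, harvest times, host strain, age and mice per library are not given in the sources used here. No library had doxorubicin alone, so doxorubicin and fasudil cannot be told apart.

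p53 binds DNA through pairs of a 10-base half-site, and 4 of the 10 genes carry an exact match to the half-site consensus close to their start. RefSeq windows of GRCm38.p6, from 250 bases before a transcript start to 50 after it, were available for 8 of the 10 genes. The consensus reads the same on both strands. Of 32851 such windows over all genes, 2745 (8.36%) hold at least 1 match and 118 (0.359%) hold at least 2. The 4 matching stretches are printed 5′ to 3′ on the gene's own strand, and capitals mark the half-site matches. The Mdm2, Ccng1 and Bax stretches hold 1 match each and no pair.
Cdkn1a: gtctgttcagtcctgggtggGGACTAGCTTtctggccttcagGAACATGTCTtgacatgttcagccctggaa
Mdm2: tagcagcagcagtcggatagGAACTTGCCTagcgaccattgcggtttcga
Ccng1: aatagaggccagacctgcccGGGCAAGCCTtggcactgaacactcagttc
Bax: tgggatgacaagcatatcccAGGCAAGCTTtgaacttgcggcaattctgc
The Cdkn1a stretch is chr17:29090886-29090957 on the plus strand, with its 2 half-sites 63 and 41 bases before the start. The Mdm2 stretch is chr10:117710915-117710964 on the minus strand, 176 bases before the start. The Ccng1 stretch is chr11:40755442-40755491 on the minus strand, 175 bases before the start. The Bax stretch is chr7:45467070-45467119 on the minus strand, 191 bases before the start, and it overlaps the annotated gene Gm45808. A match is a description of the letters, and no binding was measured here. The windows of Gdf15, Phlda3, Eda2r and Sesn2 hold no exact match. Trp53inp1 and Zmat3 are named only.

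The 10 protein-coding genes lie on 9 chromosomes of GRCm38. Cdkn1a spans chr17:29090976-29100727, Mdm2 chr10:117688875-117710758, Ccng1 chr11:40748552-40755311, Trp53inp1 chr4:11156431-11174379 and Gdf15 chr8:70629393-70632456. Phlda3 spans chr1:135766119-135769136, Zmat3 chr3:32334792-32366014, Eda2r chrX:97333840-97377216, Sesn2 chr4:132492032-132510501 and Bax chr7:45461697-45466898.

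After filtering, the libraries held 2214 (aPD-1), 2483 (D+F), 2443 (D+F+P) and 2275 (control) cells, from 22691663 to 34444856 deposited unique molecular identifiers (UMIs) per library. The D+F+P library stood apart, with a median of 1866 UMIs per cell against 9563.5 to 16143 in the others, but its melanoma-like cells were not shallow, with a median of 27448 UMIs against 15657.5 to 17969. Pairs of libraries shared 2 to 17 barcodes. Classes were rebuilt from marker genes and so end in "-like". A cluster of 915 cells with a median of 658 UMIs stayed unnamed and entered no class. It held 96 cells in aPD-1, 88 in D+F, 707 in D+F+P and 24 in control, and its nearest class was T. Melanoma-like cells carried Mlana, Pmel, Tyrp1 and Dct in 95.3% to 98.3% of cells. Fibroblast-like cells carried Col1a1 in 96.6% and Pdgfra in 65.9%, T-like cells Cd3e in 89.8%, and monocyte/macrophage-like cells Lyz2 in 67.1% and Cd68 in 75.4%. The other listed markers of monocyte/macrophage-like cells were in 14.7% (Itgam) to 50.4% (Fcgr1) of them. NK-like cells carried their listed markers in 16.6% (Ncr1) to 53.2% (Gzma) of cells.

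A level is given in CPM, the UMIs of a gene per 1000000 UMIs of all genes in that class and library. Levels and log2 ratios carry exact 95% intervals, which cover counting error only. A single library stands for each group, so no test was run, and differences between mice or between preparations cannot be told apart from the treatments. Ratios were taken where both libraries held at least 20 cells of a class and the pair held at least 20 UMIs of the gene. A gene is counted as higher or lower at a 1.5-fold difference.

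With UMIs summed over all melanoma-like cells, none of the 10 genes was 1.5-fold higher in any treated library than in control. Among cells split by cell cycle range some were, Trp53inp1 and Phlda3 among them, as given below. Cdkn1a, which encodes the cell cycle inhibitor p21, stood close to control in D+F and below it in aPD-1 and D+F+P. Its level was 194 CPM (188 to 200) in aPD-1, 260.4 CPM (255 to 266) in D+F, 159.7 CPM (153 to 166) in D+F+P and 246.6 CPM (241 to 252) in control. The log2 ratio to control was -0.35 (-0.40 to -0.29) in aPD-1, 0.08 (0.03 to 0.12) in D+F and -0.63 (-0.69 to -0.56) in D+F+P. The D+F+P level was also below the D+F level, by a log2 ratio of -0.71 (-0.77 to -0.64). The classes entering these levels were 1192 (aPD-1), 1854 (D+F), 567 (D+F+P) and 2036 (control) melanoma-like cells.

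**Figure D1:**
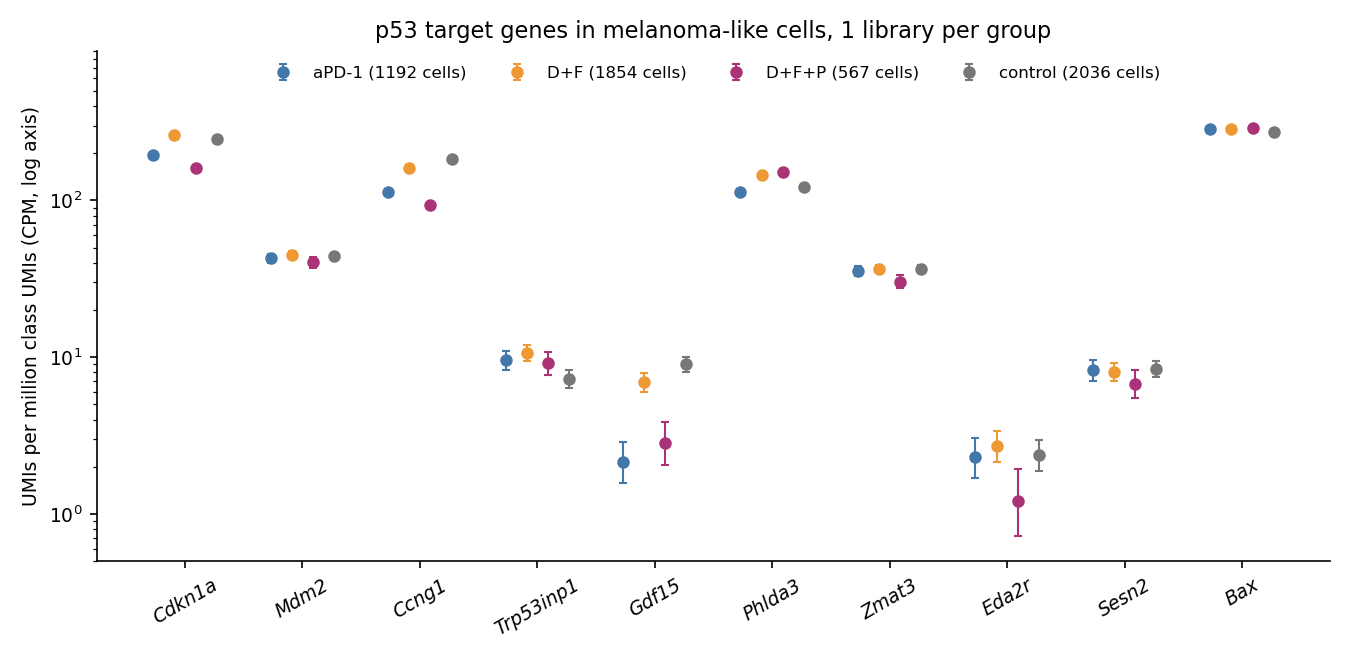
Levels of the 10 p53 target genes in melanoma-like cells, in CPM on a log axis, with 1 point per library and exact 95% counting intervals as bars. Cdkn1a, Ccng1 and Gdf15 are lowest in aPD-1 or D+F+P, and Bax lies between 274.1 and 289 CPM in all 4 libraries.

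The genes that feed back on p53 differed from each other. Ccng1, which encodes cyclin G1, was lower than control in every treated library, at 112.8 CPM in aPD-1, 160.1 CPM in D+F and 92.9 CPM in D+F+P, against 184.3 CPM in control. Its log2 ratios were -0.71 (-0.78 to -0.64) in aPD-1, -0.20 (-0.26 to -0.15) in D+F and -0.99 (-1.07 to -0.90) in D+F+P. Mdm2, the ubiquitin ligase that degrades p53, stayed within a narrow range, at 42.8, 44.7 and 40.2 CPM in aPD-1, in D+F and in D+F+P against 44.0 CPM in control. All 3 intervals of its log2 ratio to control included 0, and the widest reached -0.27 in D+F+P.

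The genes of growth arrest signalling and stress also went different ways. Phlda3, which blocks the kinase Akt, was above control in both doxorubicin libraries, with 113.9 CPM in aPD-1, 145.3 CPM in D+F, 151.6 CPM in D+F+P and 121.7 CPM in control. Its log2 ratio was 0.26 (0.19 to 0.32) in D+F and 0.32 (0.24 to 0.39) in D+F+P, against -0.10 in aPD-1. Among cells outside an S and a G2/M range, set by their summed cell cycle transcripts, the Phlda3 log2 ratio was 0.20 (0.05 to 0.34) in D+F and 0.09 (-0.11 to 0.29) in D+F+P. In the G2/M range it was 0.23 (0.004 to 0.45) in D+F and 0.57 (0.24 to 0.89) in D+F+P. In the S range it was 0.40 (-0.12 to 0.92) in D+F and 1.03 (0.32 to 1.70) in D+F+P. Gdf15, a secreted cytokine of the TGF-beta family, was lower in all treated libraries, with 45, 197 and 42 UMIs in aPD-1, in D+F and in D+F+P against 295 UMIs in control. These counts are 2.15, 6.90 and 2.84 CPM against 8.98 CPM, with log2 ratios of -2.06 (-2.55 to -1.61), -0.38 (-0.65 to -0.11) and -1.66 (-2.16 to -1.19). Gdf15 therefore had the widest spread over the libraries of the 10 genes. Sesn2, a sestrin that restrains the growth kinase mTORC1, was at 8.26, 8.09 and 6.76 CPM in aPD-1, in D+F and in D+F+P and 8.43 CPM in control, and its intervals included 0.

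The genes of cell death and RNA control did not share a direction. Bax, which opens pores in mitochondria during apoptosis, was at 286.2 CPM in aPD-1, 285.1 CPM in D+F, 289 CPM in D+F+P and 274.1 CPM in control. Its log2 ratios were 0.06, 0.06 and 0.08. Trp53inp1, a nuclear protein that promotes p53-dependent death and autophagy, was at 9.60, 10.6 and 9.13 CPM in aPD-1, in D+F and in D+F+P against 7.24 CPM in control. Trp53inp1 and Bax were the members above control in all 3 treated libraries, with log2 ratios for Trp53inp1 of 0.41 (0.13 to 0.68), 0.55 (0.30 to 0.80) and 0.33 (0.02 to 0.64). With the clusters of D+F+P weighted as in control, its Trp53inp1 log2 ratio turned to -0.23. Zmat3, an RNA-binding zinc finger protein, was at 35.4, 36.6 and 30.3 CPM against 36.4 CPM. Eda2r, a receptor of the TNF receptor family, was sparse, with 48, 77 and 18 UMIs against 78 UMIs in control, and its log2 ratio in D+F+P was -0.96 (-1.79 to -0.21).

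Counted together, 0 of 10 genes were higher and 2 lower in aPD-1 (Ccng1 and Gdf15), where 6.44% of 12222 genes were higher and 6.10% lower. In D+F 0 were higher and 0 lower, where 7.47% of 12467 genes were higher and 4.96% lower. In D+F+P 0 were higher and 4 lower (Cdkn1a, Ccng1, Gdf15 and Eda2r), where 10.1% of 12125 genes were higher and 10.6% lower. Over other processing settings the Cdkn1a log2 ratio in D+F+P ranged from -1.07 to -0.38, so it was not always 1.5-fold lower. Ccng1 (-1.39 to -0.80), Gdf15 (-2.48 to -0.78) and Eda2r (-2.21 to -0.87) stayed past that bound where each could be measured. The median log2 ratio of the 10 genes was -0.05 in aPD-1, 0.04 in D+F and -0.29 in D+F+P, beside -0.05, -0.06 and -0.09 over all genes measured. The 3 comparisons share the control library. At a 2-fold bound the lower genes were Gdf15 alone in aPD-1, none in D+F and Gdf15 alone in D+F+P, with 0 higher. The background at that bound was 2.59% higher and 1.47% lower in aPD-1, 3.58% and 1.16% in D+F, and 4.76% and 3.08% in D+F+P.

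Set directly against D+F, D+F+P had 0 of 10 genes higher and the same 4 lower, where 5.55% of 12195 genes were higher and 4.83% lower. The log2 ratios were -0.71 (-0.77 to -0.64) for Cdkn1a, -0.79 (-0.87 to -0.70) for Ccng1, -1.28 (-1.80 to -0.79) for Gdf15 and -1.15 (-1.98 to -0.39) for Eda2r. Outside the S and G2/M ranges Gdf15 was at -0.06 (-1.67 to 1.33), on 6 UMIs in D+F+P and 19 in D+F. In the G2/M range it was at -1.42 (-3.78 to 0.28), on 3 and 28 UMIs. Over other processing settings Cdkn1a ranged from -1.28 to -0.45 and Gdf15 from -1.35 to -0.06, so neither was always 1.5-fold lower. Phlda3 was nearly level between these libraries, at 0.06 (-0.01 to 0.14). Against aPD-1, 0 genes were higher and only Eda2r was lower (log2 ratio -0.91, -1.78 to -0.10), where 5.86% of 11904 genes were higher and 4.08% lower. At 2-fold, Gdf15 and Eda2r were lower than in D+F (background 1.99% higher and 1.70% lower) and none was lower than in aPD-1 (2.19% and 1.09%). With at least 200 UMIs in the pair, 0 of 8 genes differed 1.5-fold from aPD-1 (2.33% and 1.23%). In the comparison with aPD-1, Cdkn1a was at -0.28 (-0.35 to -0.21) and Phlda3 at 0.41 (0.33 to 0.50).

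**Figure D2:**
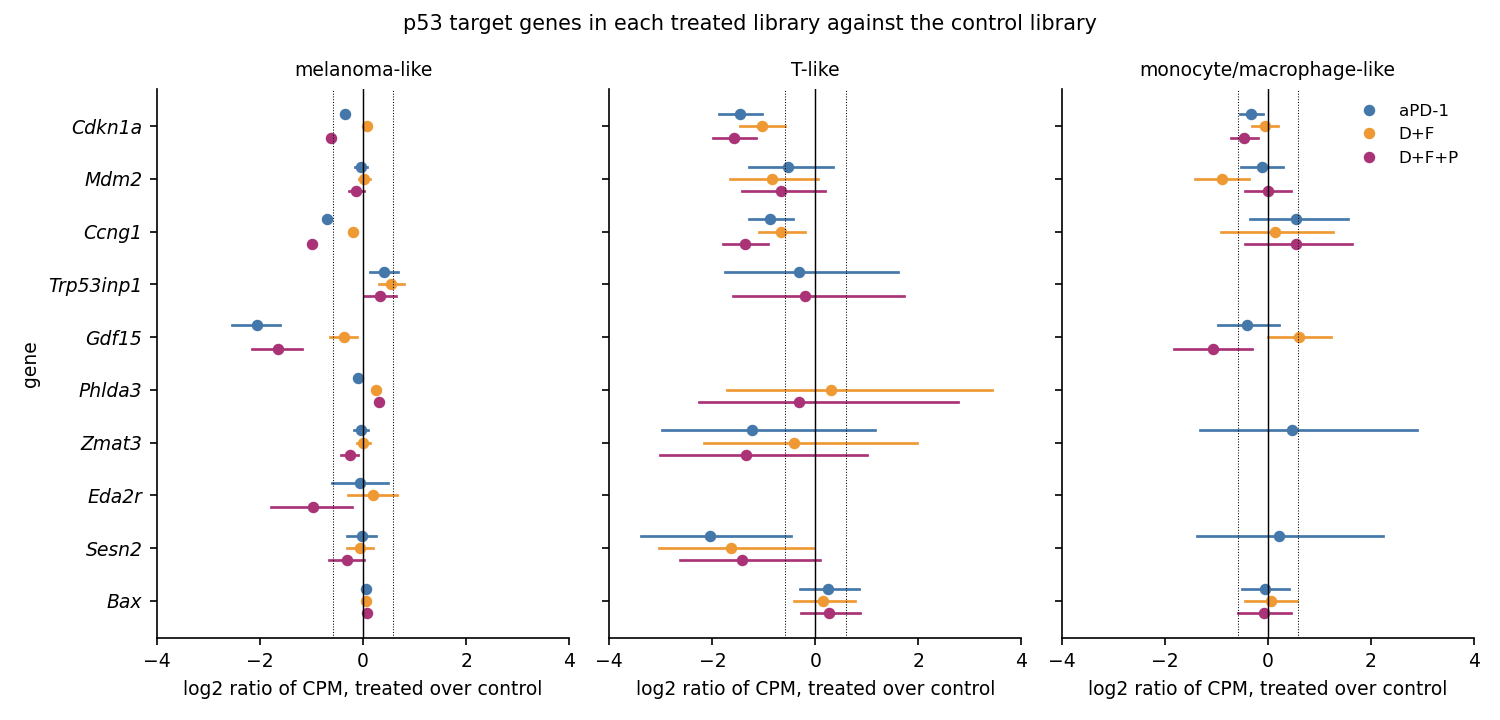
Log2 ratios of CPM of the p53 target genes in each treated library over control, in melanoma-like, T-like and monocyte/macrophage-like cells, with exact 95% counting intervals and dotted lines at 1.5-fold. In melanoma-like cells D+F+P reaches -0.99 for Ccng1 and -1.66 for Gdf15, and no gene lies beyond the upper line.

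The melanoma-like cells fell into 7 clusters, and the direction was followed in each. The clusters were unevenly shared. The largest cluster in D+F+P held 45.1% of its melanoma-like cells and 10.2% of those in control. The largest in control held 40.8% there and 7.94% in D+F+P. Ccng1 was lower in D+F+P than in control in 7 of 7 clusters, and Phlda3 was higher in 6 of 7. Cdkn1a was lower in D+F+P than in control in 6 of 7. The exception was a cluster with few ribosomal transcripts (5.98% of UMIs, with 14.6% mitochondrial), where it was at 239.8 CPM in D+F+P and 169.0 CPM in control. Against D+F, Cdkn1a and Ccng1 were both lower in D+F+P in 7 of 7 clusters. Cdkn1a in D+F was higher than control in 4 clusters and lower in 3.

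The share of cycling cells differed between libraries beside these levels. Melanoma-like cells were thinned to 5000 UMIs each and assigned to a G2/M range, an S range or neither by their summed UMIs of 49 G2/M and 42 S genes. The G2/M range held 23.1% of cells in aPD-1, 24.5% in D+F, 22.3% in D+F+P and 37.5% in control. The ranges are cuts on a score and not cell types, and 6.05% to 13.1% of cells per library lay within 2 UMIs of a cut. Of the S genes, 23 of 42 were lower in aPD-1, 18 in D+F and 27 in D+F+P, with none higher, and of the G2/M genes 28, 15 and 33 of 49 were lower, with none higher. Over all genes 6.10% were lower in aPD-1, 4.96% in D+F and 10.6% in D+F+P, and 6.44%, 7.47% and 10.1% were higher. The mitotic kinase Cdk1 had log2 ratios to control of -1.16 in aPD-1, -0.93 in D+F and -1.37 in D+F+P, and the replication licensing factor Cdc6 had -1.01, -0.93 and -1.75.

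The lower Cdkn1a and Ccng1 levels in aPD-1 and D+F+P were present outside the cycling ranges and in G2/M, but not throughout the S range. In the S range Cdkn1a was at 205.6 CPM in aPD-1 and 179.5 CPM in control (log2 ratio 0.20, -0.22 to 0.60), and at 112.5 CPM in D+F+P (-0.67, -1.47 to 0.03). Ccng1 there was at -0.35 (-1.02 to 0.28) in aPD-1 and -0.98 (-2.24 to 0.06) in D+F+P. Outside the S and G2/M ranges Cdkn1a was at 175.6 CPM in aPD-1, 262.1 CPM in D+F, 174.3 CPM in D+F+P and 249.1 CPM in control. Its log2 ratio there was -0.50 (-0.64 to -0.37) in aPD-1 and -0.51 (-0.70 to -0.34) in D+F+P. In the G2/M range its level was 195.1 CPM in aPD-1, 283.7 CPM in D+F, 180.7 CPM in D+F+P and 268.1 CPM in control. Ccng1 was at -0.80 (-1.03 to -0.59) in D+F+P outside the ranges and at -1.44 (-1.97 to -0.96) in the G2/M range. Outside the ranges Trp53inp1 was above control in each treated library, although the aPD-1 interval included 0 (0.60, -0.02 to 1.22). Outside both ranges its level was 13.6 CPM in aPD-1, 17.9 CPM in D+F and 15.8 CPM in D+F+P, against 8.94 CPM in control, on 50, 100 and 29 UMIs against 43. In the G2/M range its log2 ratio was 1.61 (0.36 to 2.87) in aPD-1 and 1.44 (0.32 to 2.62) in D+F. These rest on 13 and 19 UMIs against 12 in control. Its UMIs were too few for a ratio in the G2/M range of D+F+P (5 UMIs) and in the S range. Gdf15 outside the ranges had 6 UMIs in D+F+P and 27 in control (-0.78, -2.34 to 0.53).

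**Figure D3:**
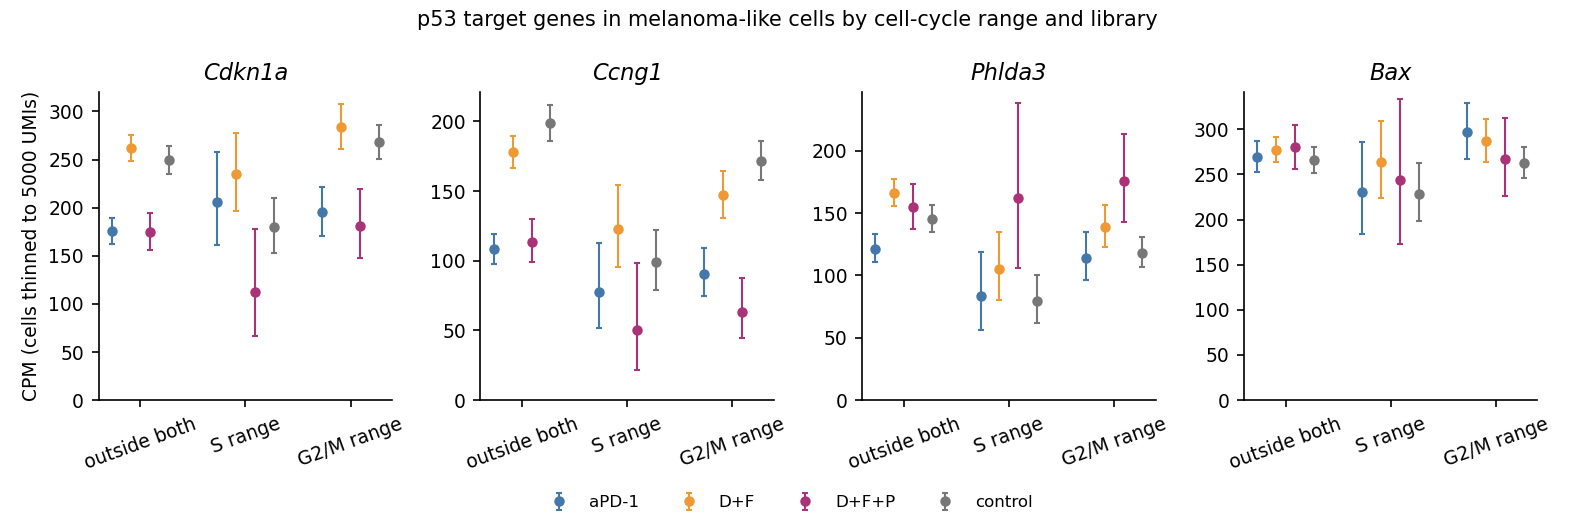
Levels of Cdkn1a, Ccng1, Phlda3 and Bax in melanoma-like cells thinned to 5000 UMIs, in CPM with exact 95% counting intervals, by cell cycle range and library. Outside the S and G2/M ranges Cdkn1a stands at 174.3 CPM in D+F+P and 262.1 CPM in D+F, and in the G2/M range Ccng1 stands at 63.2 CPM in D+F+P and 171.6 CPM in control.

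Single melanoma-like cells at this depth carried UMIs of 2.33 of the 10 genes on average in aPD-1, 2.66 in D+F, 2.28 in D+F+P and 2.56 in control. Cells with at least 3 of the genes made up 41.6% (38.6 to 44.6) in aPD-1, 54.4% (52.0 to 56.9) in D+F, 41.4% (37.1 to 45.8) in D+F+P and 48.0% (45.7 to 50.3) in control. Cells with at least 5 were 6.27%, 8.53% and 5.66% in aPD-1, in D+F and in D+F+P and 8.67% in control. At 4 or more the shares were 18.5%, 25.6% and 17.6% against 23.9%, and at 6 or more 1.80%, 2.64% and 1.95% against 2.31%. The D+F and control intervals were apart at 3 genes and overlapped at 4, 5 and 6. Within a library, the 6 to 15 pairs of genes with enough UMIs had a median Pearson correlation across cells of 0.085 in aPD-1, 0.085 in D+F, 0.22 in D+F+P and 0.094 in control. The pairs were 10 in aPD-1, 15 in D+F, 6 in D+F+P and 15 in control. Those of D+F+P involve Cdkn1a, Ccng1, Phlda3 and Bax alone, so the medians cover unlike pairs and cannot be compared between libraries. Cdkn1a and Phlda3 (0.24 to 0.30) and Cdkn1a and Ccng1 (0.20 to 0.32) lay at the high end, and the lowest pair was at -0.0081. These are descriptions over 512 to 1822 cells of 1 library each, and the cells share that library.

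The genes most like the summed 10, among 1706 genes with enough UMIs in every library, were Cd81, Rps27l, H2afj, Crip2 and Fam162a. Rps27l is itself on the list of further p53 targets followed below. Their likeness is the lowest Pearson correlation over the 4 libraries. It was 0.19 for Cd81, 0.16 for Rps27l, 0.15 for H2afj, 0.14 for Crip2 and 0.11 for Fam162a. All of these values are weak.

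The regulators of p53 were measured in the same melanoma-like cells. Trp53, which encodes p53, was lower in every treated library, at 57.3 CPM in aPD-1, 56.2 CPM in D+F and 54.3 CPM in D+F+P, against 90.9 CPM in control. The log2 ratios were -0.66 (-0.76 to -0.57), -0.69 (-0.78 to -0.60) and -0.74 (-0.86 to -0.63). p53 activity is set mainly at the protein, which was not measured. Mdm4, an inhibitor of p53, was at 27.6, 23.8 and 22.7 CPM against 26.1 CPM. Ppm1d, a phosphatase that ends p53 signalling and is itself a p53 target, was at 9.0 CPM in D+F+P and 5.7 CPM in control (log2 ratio 0.66, 0.33 to 0.99). Cdkn2a, whose product Arf restrains Mdm2, had 2, 0 and 1 UMIs in aPD-1, in D+F and in D+F+P and 0 UMIs in control, while T-like cells of the aPD-1 library had it at 52.4 CPM.

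Of 34 further p53 targets on a list, 31 or 32 could be measured in melanoma-like cells. In aPD-1 0 were higher and 1 lower, the phosphatase gene Ptp4a3 (-0.99), with Plk3 (0.51) at the high end. In D+F 2 were higher and 0 lower. One was Btg2, an antiproliferative gene, at 9.53 CPM in D+F and 4.44 CPM in control (1.10, 0.81 to 1.40). The other was Perp, with 95 UMIs in D+F and 3 in control (5.19, 3.60 to 7.49), where 15 cells carried every UMI and 1 cell 47.4% of them. In D+F+P 3 were higher, namely the stress kinase gene Plk3 at 11.8 CPM and 5.60 CPM in control (1.08, 0.77 to 1.39), Btg2 (0.74) and the death receptor gene Fas, which had 17 UMIs against 18. In D+F+P 3 were lower, namely Pidd1 (-1.58), the G2 and S phase gene Gtse1 (-1.02) and Tnfrsf10b (-0.64). The list's median log2 ratio was -0.06 in aPD-1, 0.03 in D+F and -0.14 in D+F+P. These counts lie near or below the background over all genes, which was 7.47% higher in D+F, and 10.1% higher and 10.6% lower in D+F+P, so they are no result about the list.

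Genes of the integrated stress response, the other known input to Gdf15 and Sesn2, were followed beside them. Of 13 genes 0 were higher in any treated library, and 1 was lower in aPD-1, 1 in D+F and 5 in D+F+P, with medians of -0.19, -0.19 and -0.25. The background over all genes was 6.44% higher and 6.10% lower in aPD-1, 7.47% and 4.96% in D+F, and 10.1% and 10.6% in D+F+P. Ddit3, which encodes the stress factor CHOP, was at 0.27 in aPD-1, 0.20 in D+F and 0.20 in D+F+P. The amino acid synthesis gene Asns was at -0.69 in D+F+P, Aldh1l2 at -1.62 and the mTORC1 inhibitor Ddit4 at -0.87. The part of this pathway in the Gdf15 levels was not tested.

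In fibroblast-like cells, several p53 targets were higher in D+F+P than in aPD-1, the only libraries with at least 20 such cells (25 and 44). Cdkn1a was at 356 CPM (301 to 419) in D+F+P and 190 CPM (160 to 224) in aPD-1, a log2 ratio of 0.91 (0.57 to 1.25). Mdm2 was at 145 CPM (110 to 187) in D+F+P and 40.1 CPM (27 to 57.2) in aPD-1, a log2 ratio of 1.86 (1.20 to 2.54). Phlda3 was at 216 CPM in D+F+P and 80.2 CPM in aPD-1 (1.43, 0.94 to 1.93), and Zmat3 at 59 CPM in D+F+P and 28.1 CPM in aPD-1 (1.07, 0.17 to 1.99). These were the 4 of 6 measured genes that were higher, and 0 were lower, where 22.0% of 5557 genes were higher and 15.7% lower. Ccng1 was at 170 CPM in D+F+P and 126 CPM in aPD-1 (0.43, -0.04 to 0.90), and Bax at 243 CPM in D+F+P and 186 CPM in aPD-1 (0.39, 0.00 to 0.77). The median log2 ratio was 0.99, beside 0.03 over all genes measured. No comparison with control was possible in this class, which held 12 cells in control and 7 in D+F.

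**Figure D4:**
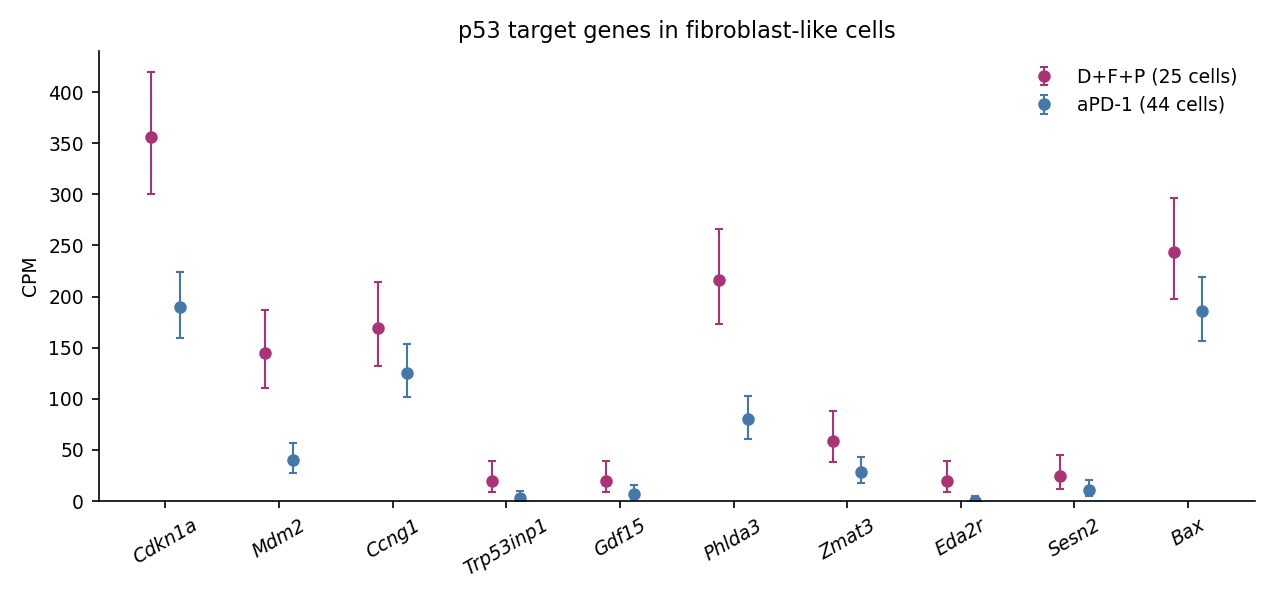
Levels of p53 target genes in fibroblast-like cells, in CPM with exact 95% counting intervals, for the D+F+P (25 cells) and aPD-1 (44 cells) libraries. Cdkn1a, Mdm2, Phlda3 and Zmat3 have higher levels in D+F+P, with Mdm2 at 145 CPM against 40.1 CPM.

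The other 4 genes had few UMIs in fibroblast-like cells. Eda2r had 8 UMIs in 6 cells of D+F+P and 0 UMIs in aPD-1. Trp53inp1 had 8 UMIs in D+F+P and 2 in aPD-1, Gdf15 8 and 5, and Sesn2 10 and 8. Single cells weighed heavily, since 1 cell held 20.7% of the D+F+P UMIs of Cdkn1a, 23.7% of those of Mdm2 and 23.9% of those of Phlda3. After thinning to 3000 UMIs, 6 of 25 D+F+P cells carried at least 4 of the 10 genes (24.0%, 9.36 to 45.1), against 2 of 39 aPD-1 cells (5.13%, 0.63 to 17.3). At 5 or more genes the counts were 1 of 25 cells (4.0%, 0.10 to 20.4) in D+F+P and 2 of 39 (5.13%) in aPD-1. At 3 or more they were 8 of 25 cells (32.0%, 14.9 to 53.5) in D+F+P and 4 of 39 (10.3%, 2.87 to 24.2) in aPD-1, so the intervals overlapped at each of these bounds. The mean was 2.44 genes per cell in D+F+P and 1.28 in aPD-1.

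Other genes differed between the same fibroblast-like cells, some of the class's own markers among them. The matrix genes Dcn and Lum were at 2581 and 231 CPM in D+F+P against 938 and 96.2 CPM in aPD-1. The receptor Pdgfrb was at 123 CPM in D+F+P and 64.1 CPM in aPD-1, and the contractile gene Acta2 at 386 CPM in D+F+P and 675 CPM in aPD-1. Of the Acta2 UMIs 1 cell held 35.0% in D+F+P and 52.1% in aPD-1. The collagen markers Col1a1, Col1a2 and Col3a1 were at 6345, 3776 and 5044 CPM in D+F+P against 5762, 3605 and 4217 CPM in aPD-1. Pdgfra was at 162 CPM in D+F+P and 94.9 CPM in aPD-1, and Postn at 767 and 953 CPM. The part of a different makeup of the class in its p53 target levels was not tested. Cdkn2a, a marker of arrested and senescent cells, had 84 UMIs in D+F+P, or 206 CPM (165 to 256), of which 1 cell held 31%, and 27 UMIs in aPD-1, or 36.1 CPM. Its log2 ratio was 2.52 (1.88 to 3.20). Of 16 further p53 targets 9 were higher and 1 lower, with a median of 0.62, where 22.0% of 5557 genes were higher and 15.7% lower. Plk3 was at 1.67, the apoptosome gene Apaf1 at 1.59, Btg2 at 0.83 and Ei24 at -1.18. Of the S genes 0 of 18 were higher and 14 lower, and of the G2/M genes 1 of 29 was higher and 27 were lower. The shares over all genes were the same 22.0% and 15.7%. The proliferation marker Mki67 had 10 UMIs in D+F+P and 63 in aPD-1. The part of cycling cells in the fibroblast-like levels was not tested.

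Monocyte/macrophage-like cells, 241 (aPD-1), 105 (D+F), 95 (D+F+P) and 63 (control), had Cdkn1a at 693 CPM (643 to 747) in aPD-1, 829 CPM (747 to 918) in D+F, 629 CPM (559 to 705) in D+F+P and 863 CPM (751 to 987) in control. The log2 ratios to control were -0.32 (-0.54 to -0.09) in aPD-1, -0.06 (-0.31 to 0.19) in D+F and -0.46 (-0.72 to -0.20) in D+F+P. The intervals of D+F+P and aPD-1 overlapped, as did those of D+F and control. Mdm2 was lower in D+F, at 141 CPM, than in aPD-1 (239 CPM), D+F+P (260 CPM) and control (259 CPM), with a D+F log2 ratio to control of -0.88 (-1.41 to -0.36). Gdf15 had 102 UMIs in aPD-1, 91 in D+F, 30 in D+F+P and 33 in control, and 1 cell held 24% to 45% of them in each library. Its log2 ratio was 0.60 (0.02 to 1.23) in D+F and -1.05 (-1.82 to -0.30) in D+F+P. Bax was between 202 and 219 CPM in all 4 libraries.

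Counted over the measured genes of this class, 0 of 7 were higher and 0 lower in aPD-1, where 21.4% of genes were higher and 15.8% lower. In D+F 1 of 5 was higher (Gdf15) and 1 lower (Mdm2), where 16.4% were higher and 15.6% lower. That Gdf15 ratio ranged over -0.045 (cells thinned to 1000 UMIs) to 1.75 under other settings, and it was under 1.5-fold with median-of-ratios scaling. In D+F+P 0 of 5 were higher and 1 lower (Gdf15), where 21.0% were higher and 18.6% lower. The makeup of the class differed between libraries, with complement C1q transcripts at 5363 CPM in aPD-1, 6096 CPM in D+F, 2288 CPM in D+F+P and 2975 CPM in control. The monocyte gene Ly6c2 was at 742, 326 and 730 CPM against 357 CPM. Pigment cell transcripts were present in these cells at 3.3%, 7.4% and 2.1% of their melanoma-like level in aPD-1, in D+F and in D+F+P, and at 12.1% in control. Their part in the levels was not tested. Ccng1 and Phlda3 are the members where such transcripts weigh most, since that share of the melanoma-like level equals 45.8% of the Ccng1 and 90.8% of the Phlda3 level in control.

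**Figure D5:**
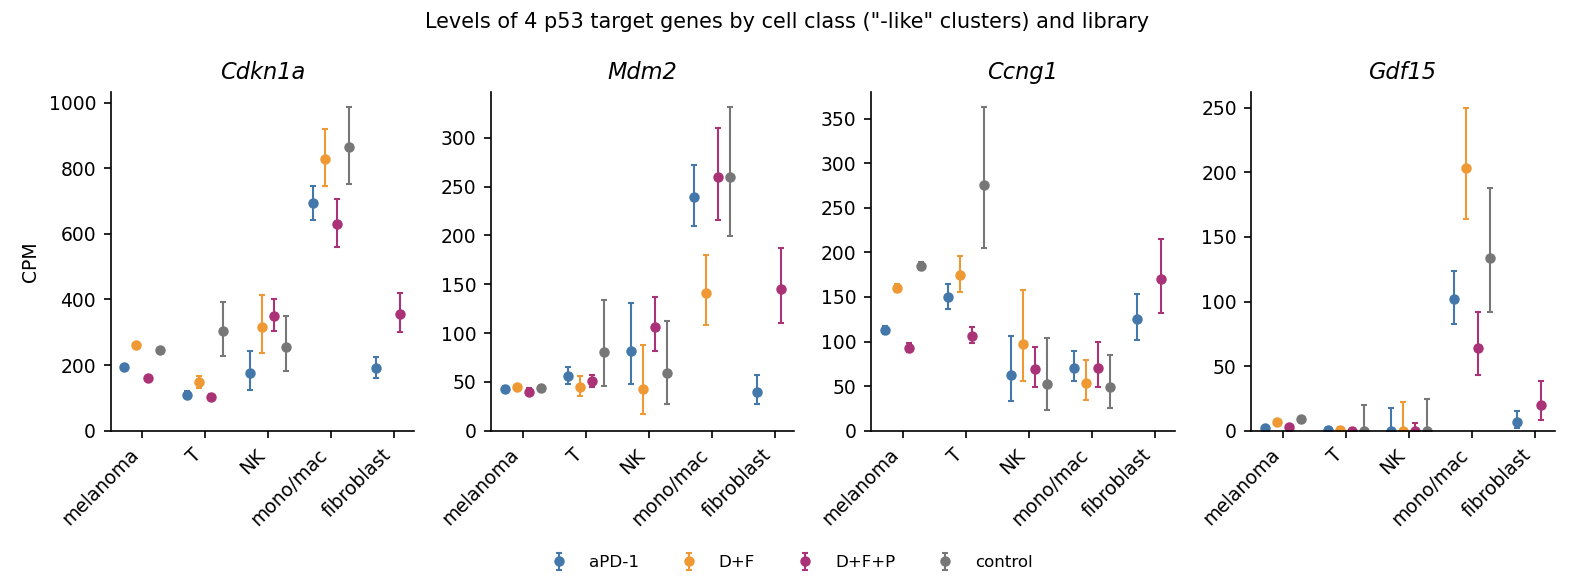
Levels of Cdkn1a, Mdm2, Ccng1 and Gdf15 by cell class and library, in CPM on linear axes that start at 0, with exact 95% counting intervals for classes of at least 20 cells. In monocyte/macrophage-like cells Cdkn1a lies between 629 and 863 CPM, and in T-like cells it is at 101 to 148 CPM in the treated libraries and 303 CPM in control.

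T-like cells numbered 514 in aPD-1, 318 in D+F, 685 in D+F+P and only 46 in control. Cdkn1a was at 110 CPM in aPD-1, 148 CPM in D+F, 101 CPM in D+F+P and 303 CPM in control, where it rested on 56 UMIs with 27% of them in 1 cell. The log2 ratios were -1.46 (-1.87 to -1.03), -1.03 (-1.45 to -0.59) and -1.58 (-1.98 to -1.15). Ccng1 was at 150, 175 and 107 CPM in aPD-1, in D+F and in D+F+P against 276 CPM in control, with log2 ratios of -0.88, -0.66 and -1.37. Bax was at 180, 168 and 182 CPM against 152 CPM, and its intervals included 0. In aPD-1 0 of 7 measured genes were higher and 4 lower, where 17.3% of genes were higher and 23.9% lower. In D+F 0 of 7 were higher and 4 lower (17.2% and 18.4%), and in D+F+P 0 of 8 were higher and 5 lower (16.7% and 27.5%).

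Different clusters held most of the T-like cells in treated and control libraries. A CD8 cluster held 346 cells in aPD-1, 171 in D+F and 371 in D+F+P but 5 in control, where 28 of 46 cells lay in another cluster. Within that cluster Cdkn1a was at 118 CPM in aPD-1, 205 CPM in D+F and 198 CPM in D+F+P, against 167 CPM in control. The log2 ratios were -0.50 (-1.48 to 0.52) in aPD-1, 0.30 (-0.55 to 1.23) in D+F and 0.25 (-0.54 to 1.13) in D+F+P, on 15 UMIs in control, and all 3 intervals included 0. Ccng1 rested on 11 UMIs in control there, with log2 ratios of -0.61 (-1.79 to 0.63) in aPD-1, -0.02 (-1.04 to 1.11) in D+F and -0.94 (-1.95 to 0.18) in D+F+P. Neither gene could be placed above or below control in that cluster at this depth. A further T-like cluster had few ribosomal transcripts (7.36% of UMIs, with 12.8% mitochondrial). It held 51 cells in aPD-1, 18 in D+F, 126 in D+F+P and 0 in control, and its part in the T-like levels was not tested. When clustering kept the p53 genes, T-like cells numbered 584 in aPD-1, 389 in D+F, 1299 in D+F+P and 57 in control.

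NK-like cells, 89 (aPD-1), 78 (D+F), 345 (D+F+P) and 41 (control), had Cdkn1a at 177 CPM in aPD-1, 316 CPM in D+F, 349 CPM in D+F+P and 256 CPM in control. The interval of D+F+P against control included 0 (log2 ratio 0.44, -0.06 to 0.98), while D+F+P was above aPD-1 (0.98, 0.47 to 1.52). Mdm2 was at 81.5, 42.6 and 107 CPM in aPD-1, in D+F and in D+F+P and 59.2 CPM in control. Of the D+F+P cells, 271 lay in a cluster with few ribosomal transcripts, against 47 of the aPD-1 cells. Its part in the NK-like levels was not tested. With classes set by markers per cell, NK-like cells numbered 46 in aPD-1, 36 in D+F, 169 in D+F+P and 39 in control. Gdf15 had 0 UMIs in NK-like cells of every library, and in T-like cells it had 2 UMIs in aPD-1, 1 in D+F, 0 in D+F+P and 0 in control.

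Across cell classes, the same gene could differ far more than between libraries. Cdkn1a was highest in monocyte/macrophage-like cells in all 4 libraries among the classes with at least 20 cells, at 629 to 863 CPM against 159.7 to 260.4 CPM in melanoma-like cells. Gdf15 showed the same order, at 64.4 to 203 CPM in monocyte/macrophage-like cells and 2.15 to 8.98 CPM in melanoma-like cells. Phlda3 was instead a gene of melanoma-like cells (113.9 to 151.6 CPM) and fibroblast-like cells (80.2 and 216 CPM), and it was at 5.56 to 13.3 CPM in T-like cells. Zmat3 was at 30.3 to 36.6 CPM in melanoma-like cells and 6.37 to 16.2 CPM in T-like cells, where control had 3 UMIs. Eda2r had 0 UMIs in monocyte/macrophage-like cells of every library and 1 UMI in T-like cells, in aPD-1. Dendritic-like, plasmacytoid dendritic-like and neutrophil-like cells numbered at most 20 in any library and were not compared.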

How the data were processed

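The authors deposited raw UMI counts per gene and cell barcode, whole numbers with no normalization, per the file headers. Per the submitters' processing notes, Cell Ranger 3.1.0 and the GRCm38 (mm10) build were used. The members, lists and tests were chosen with earlier results of these data known.

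Cells needed 300 genes and 500 UMIs, and those above 20% mitochondrial UMIs were dropped. Scrublet marked 46 of 9461 barcodes (0.486%), which were removed, but under 0.5% the caller has not worked and doublets remain. Leiden clusters (resolution 1) used 2000 variable genes without p53 genes, 30 principal components and 15 neighbours in Scanpy 1.11.5. Clusters were named from listed markers, and the way of scoring them, like the cell cycle cuts (20 and 15 UMIs), was chosen after seeing the data. UMIs were summed per class and library. Levels have exact Poisson, ratios exact conditional binomial and shares Clopper-Pearson 95% intervals (SciPy 1.17.1). The fold and ratio interval steps were run on simulated Poisson counts, the model that the intervals assume. Such counts lack the clumping of UMIs in single cells, so that run checks the code and not the intervals for these data. Gene symbols came from the files. Genes named are the 10 members, Trp53, Mdm4, Cdkn2a, Ppm1d, genes at the ends of each list in melanoma-like cells and the 5 most correlated genes. Mki67, C1q, Ly6c2, Dcn, Lum, Pdgfrb, Acta2, the levels of the other fibroblast markers and the fibroblast-like list genes were added after their values were seen. Alternatives covered 16 settings.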

Additional observations from a re-analysis of the deposited data

Results flagged for a closer look

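Several genes had intervals on opposite sides of 0 in different cell classes under the same pair of libraries. These are values of single libraries, and the differences between classes were not tested. For D+F against control, Cdkn1a had a log2 ratio of 0.078 in melanoma-like cells and -1.03 in T-like cells, and Gdf15 had 0.60 in monocyte/macrophage-like cells and -0.38 in melanoma-like cells. The monocyte/macrophage-like Gdf15 value turned to -0.045 with cells thinned to 1000 UMIs. The T-like Cdkn1a value was 0.30 (-0.55 to 1.23) in the cluster that held most control T-like cells. For D+F+P against D+F, Mdm2 was at 1.32 in NK-like cells and 0.88 in monocyte/macrophage-like cells, against -0.15 in melanoma-like cells. For D+F+P against aPD-1, Cdkn1a was at 0.98 in NK-like cells and 0.91 in fibroblast-like cells, against -0.28 in melanoma-like cells. In the same comparison Zmat3 was at 1.07 in fibroblast-like cells and -0.22 in melanoma-like cells.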

How the results depend on the processing

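No paired analysis was possible because each group has 1 library. Of 236 counts of genes recomputed under other settings, 185 stayed within the bounds set for them. Log2 ratios of single genes in melanoma-like cells stayed 405 times and moved 109 times, and their medians stayed 56 times and moved 14 times. In T-like cells 118 single-gene ratios stayed, 8 moved and 4 reversed. In monocyte/macrophage-like cells 80 stayed, 6 moved and 1 reversed. In fibroblast-like cells 40 stayed and 3 moved, and in NK-like cells 52 stayed and 1 reversed. Counts outside melanoma-like cells and the fibroblast-like depth minimum were added after seeing the data. The counts that moved follow, as genes 1.5-fold higher or lower, and the cause was not tested. Shares over all genes at other settings were computed only for the 2-fold bound and the minimum of 200 UMIs. The remaining counts below are therefore no result about the genes. Cells thinned to 1000 UMIs in melanoma-like cells gave 1 higher and 2 lower in D+F+P relative to control, 1 higher and 2 lower relative to D+F, and 1 higher and 0 lower relative to aPD-1. In T-like cells thinning gave 1 lower in aPD-1, 1 lower in D+F, and 1 higher and 2 lower in D+F+P, in monocyte/macrophage-like cells 0 higher and 0 lower in D+F and 0 lower in D+F+P, and in fibroblast-like cells 1 higher of 1 measured. Thinning turned Mdm2 to 0.41 (D+F) and 0.59 (D+F+P) in T-like cells and Gdf15 to -0.045 in D+F monocyte/macrophage-like cells. Melanoma-like cells outside the S and G2/M ranges gave 1 higher in aPD-1, 1 higher and 1 lower in D+F, 1 higher and 2 lower in D+F+P, and, for D+F+P, 2 lower than in D+F and 0 lower than in aPD-1. The gene higher than control in these cells was Trp53inp1 in each treated library. A 2-fold bound gave 1 lower in aPD-1, 1 in D+F+P, and, for D+F+P, 2 lower than in D+F and 0 lower than in aPD-1, and a minimum of 200 UMIs gave 0 lower in the last. Leaving out cells with markers of 2 broad classes kept 68 melanoma-like cells in aPD-1, 131 in D+F, 26 in D+F+P and 131 in control, and gave 2 higher and 1 lower in aPD-1, 1 higher and 2 lower in D+F+P, and 2 lower against D+F, with Cdkn1a in aPD-1 turning to 0.62 against control. It gave 1 higher in T-like aPD-1 and 1 in T-like D+F+P, and in monocyte/macrophage-like cells 1 higher and 1 lower in aPD-1 and 1 higher and 0 lower in D+F+P. It left no fibroblast-like value. Median-of-ratios scaling, which moved the median of all genes by at most 0.09 in melanoma-like cells, gave 1 higher in melanoma-like D+F and 0 higher in monocyte/macrophage-like D+F. Classes set by markers per cell gave 1 higher in monocyte/macrophage-like aPD-1, 2 in D+F, and 1 higher and 0 lower in D+F+P. A stricter cell filter gave 1 higher in aPD-1 of that class, and turned Mdm2 in NK-like D+F+P against control to -0.13. Without the 1% of cells with most UMIs of the 10 genes, 1 was higher in T-like D+F and 0 lower in monocyte/macrophage-like D+F+P. In the T-like cluster that held most control cells, which was chosen after seeing the data, 1 was higher and 1 lower in aPD-1, 0 lower in D+F, and 1 higher and 2 lower in D+F+P, with a median of 0.25, and Cdkn1a was at 0.30 (D+F) and 0.25 (D+F+P). In fibroblast-like cells Cdkn1a ranged over 0.75 to 1.78, Mdm2 over 1.75 to 2.32, Phlda3 over 1.18 to 1.93 and Zmat3 over 0.77 to 2.01, where each could be measured.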
